A study of Mus musculus with 6 samples.

Results

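The 10 genes described here encode granule proteases, a histamine-synthesising enzyme and receptor chains of mast cells and basophils. They are Gzmb, Mcpt4, Mcpt8, Prss34, Cpa3, Cma1, Tpsb2, Hdc, Ms4a2 and Fcer1a, and they were taken by gene name from the 25033 gene symbols listed in each of 6 RNA sequencing libraries. All 10 were listed, and all 10 passed the filter on low counts that left 12978 genes. The inhibitor group was made of 3 libraries (inhibitor 1 to 3) from green fluorescent haematopoietic stem cells (HSCs) recovered by sorting from recipient marrow, after the transplanted cells had been treated with an inhibitor of miR-31-5p. The control group was made of 3 libraries (control 1 to 3) prepared in the same way after treatment with a control RNA. All 6 samples were bone marrow cells of the C57BL/6J strain at 6 months of age, and no genotype other than the strain was labelled. Transplantation and green fluorescence were common to both groups. The sources used here give neither the dose of the inhibitor, the time since transplantation nor the way the cells were made fluorescent. Because the genes were chosen on the contrast of inhibitor with control, their own differences are given as a description, with no test.

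Mast cells and basophils store histamine and proteases in granules, bound to the proteoglycan serglycin, and release them when IgE on their high-affinity receptor is crosslinked by antigen. That receptor is built of an IgE-binding alpha chain (Fcer1a), a signal-amplifying beta chain (Ms4a2) and a signalling gamma chain (Fcer1g). Both cell types arise in the marrow; basophils leave it nearly mature, whereas mast cells complete their maturation in tissues, where the set of chymases and tryptases they hold differs between mucosa and connective tissue.

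Total counts were 16873188 to 19496200 in the inhibitor libraries and 19866738 to 21245861 in the control libraries, so that 3 counts corresponded to 0.141 to 0.177 counts scaled to library size (CPM). Levels below are CPM scaled by the trimmed mean of M-values (TMM), and means are given ± SD over the 3 libraries of a group. Log2 changes are inhibitor against control ± SE from edgeR. The labels do not state whether a group's libraries derive from different animals; the p-values therefore reflect the spread among these 6 samples, which could be technical. The ribosomal precursor gene Rn45s took 1784 to 3145 counts in inhibitor libraries and 3667 to 61656 in control libraries, with the highest values in control libraries 1 and 3. Of the stem cell markers used to check the label, Kit had 406 CPM in inhibitor and 402 CPM in control libraries and Cd34 had 388 CPM in inhibitor and 363 CPM in control libraries. Procr, a receptor that marks HSCs, was far lower at 7.55 CPM in inhibitor and 1.06 CPM in control libraries, Mecom had 0.384 CPM in inhibitor and 0.636 CPM in control libraries, and Hoxb5 had 0 counts in all 6 libraries. The label of HSCs therefore goes with abundant Kit and Cd34 and with little or none of several markers of the most primitive cells. In such bulk samples, fewer cells of a type and less RNA per cell cannot be told apart.

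The sequences bearing on the agent come first, because the inhibitor was directed at 1 microRNA whose seed can be sought in the members' transcripts. The mature microRNA, from RefSeq (GRCm38.p6, chr4:88910614-88910635, minus strand), is shown 5′ to 3′ with its seed, bases 2 to 8, in capitals. Below it stands the only match found among the members, in the 3′ UTR of Tpsb2 (GRCm38, chr17:25368007-25368036, plus strand), with the 7 letters complementary to the seed in capitals.
miR-31-5p: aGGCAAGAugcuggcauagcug
Tpsb2 seed match: ttccggttcccTCTTGCCtcccaccacata
The match (TCTTGCC) lay in the longest annotated 3′ UTR of 1 of 10 members, against 13.22% of the 12260 tested genes with an annotated 3′ UTR. The other 9 members held no match there, and taking all annotated 3′ UTRs of a gene gave the same 1 of 10 members. Of the 4 coding transcripts of Tpsb2, 3 contained the match. Tpsb2 had 165 ± 5.26 CPM in inhibitor libraries and 164 ± 15.7 CPM in control libraries, and its groups overlapped. The members whose levels stood furthest apart, Gzmb and Fcer1a, hold no such match in these UTRs. Only exact matches of 7 letters in annotated 3′ UTRs were sought. The part of miR-31-5p sites in the members' differences was not tested.

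The members moved in different directions. In the inhibitor libraries Gzmb was 4.82-fold lower and Fcer1a 3.59-fold higher, Mcpt4 was 1.53-fold higher and Hdc 1.39-fold lower, whereas Cma1, Tpsb2 and Prss34 overlapped between the groups. In 7 of the 10 genes the values of the groups did not overlap, which was so for 52.4% of all tested genes. Of these, 3 were higher (Mcpt4, Cpa3 and Fcer1a), against 25.9% of tested genes, and 4 were lower (Gzmb, Mcpt8, Hdc and Ms4a2), against 26.5%. Since the members were chosen on this contrast, nothing is read from these shares. The median log2 change was -0.05 over the 10 genes and -0.01 over all tested genes, and the members' changes spanned -2.27 to 1.85.

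**Figure D1:**
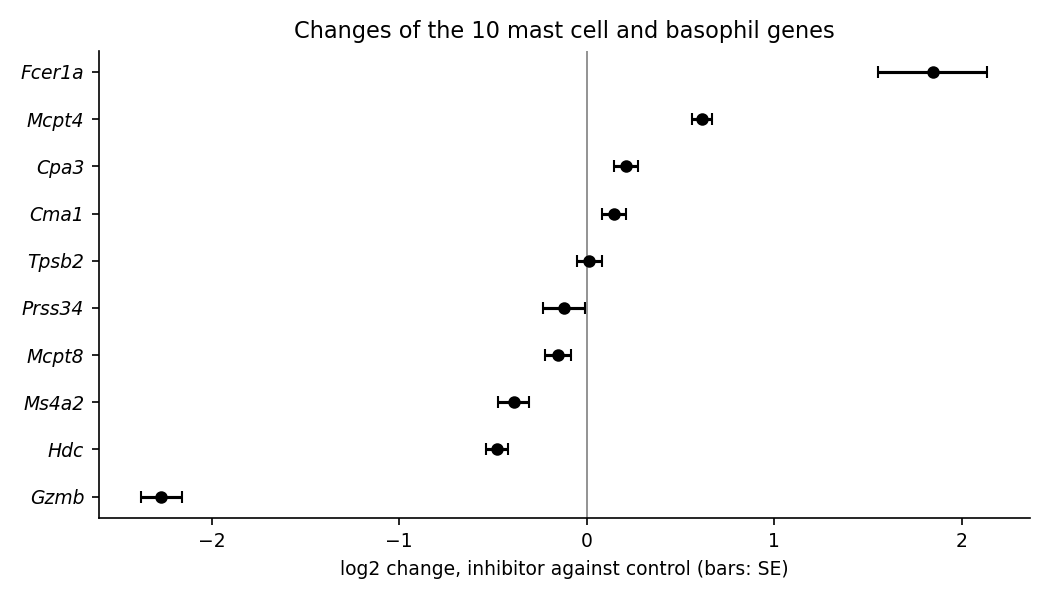
Log2 change of each of the 10 genes, inhibitor against control, with bars for the SE. Gzmb stands furthest below 0 at -2.27 and Fcer1a furthest above it at 1.85, while Tpsb2 sits at 0.01.

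Levels per kilobase of transcript allow the genes to be ordered, and the order given here is of levels, not of differences. Cpa3 was the most abundant, with 437 CPM per kilobase in inhibitor and 378 in control libraries, and ranked 129 in inhibitor and 163 in control libraries of the 25033 symbols. Cma1 followed with 346 CPM per kilobase in inhibitor and 313 in control libraries, then Mcpt4 with 254 in inhibitor and 166 in control libraries and Tpsb2 with 152 in inhibitor and 151 in control libraries. These 4 genes of mast cell granules thus sat far above the basophil proteases Mcpt8, at 58.5 CPM per kilobase in inhibitor and 65.0 in control libraries, and Prss34, at 16.9 in inhibitor and 18.4 in control libraries. Hdc had 28.4 CPM per kilobase in inhibitor and 39.5 in control libraries, Ms4a2 had 10.9 in inhibitor and 14.3 in control libraries, and Fcer1a was lowest with 2.42 in inhibitor and 0.670 in control libraries. Gzmb changed place: it had 8.14 CPM per kilobase in inhibitor libraries, below Ms4a2, and 39.2 in control libraries, beside Hdc. In the inhibitor libraries no neighbours in this order overlapped. In the control libraries Mcpt4 (160 to 170) overlapped with Tpsb2 (141 to 167), and Gzmb (36.8 to 43.7) overlapped with Hdc (38.4 to 40.7), so neither pair can be ordered there.

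**Figure D2:**
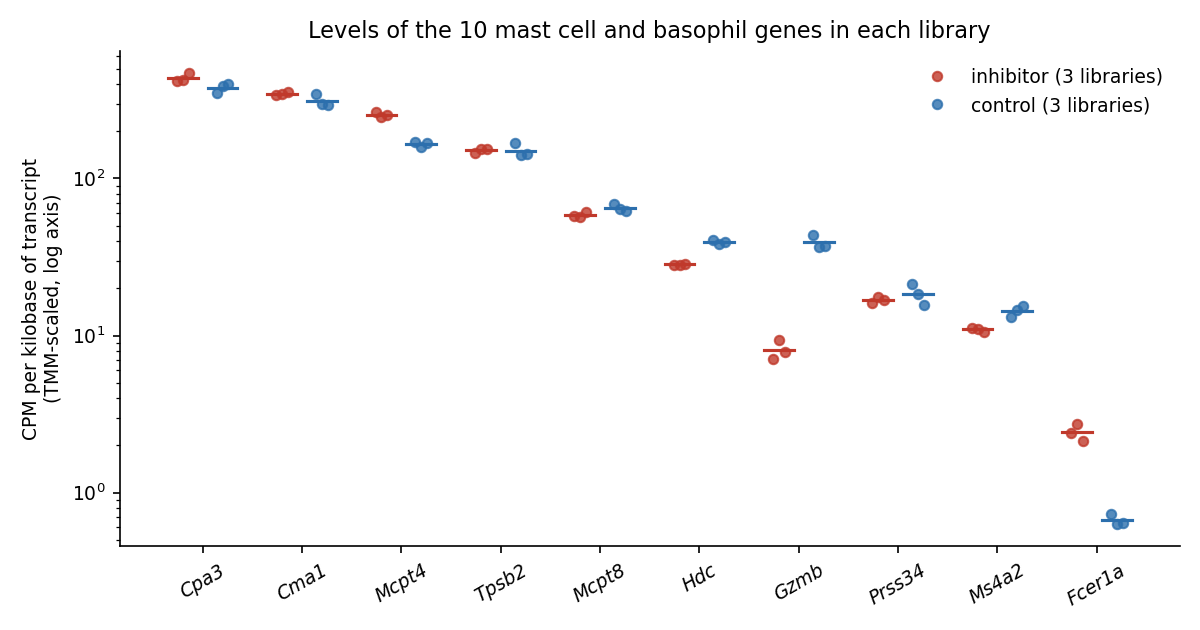
TMM-scaled CPM per kilobase of transcript (log axis) of the 10 genes, with a point for each of the 3 inhibitor and 3 control libraries and a bar at each group's mean. Gzmb lies between 7.10 and 9.42 in inhibitor libraries and between 36.8 and 43.7 in control libraries, and Fcer1a, at the bottom of the scale, between 2.13 and 2.73 in inhibitor and between 0.633 and 0.734 in control libraries.

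Gzmb encodes granzyme B, a serine protease of cytotoxic lymphocyte granules that is also made by mouse mast cells and by plasmacytoid dendritic cells. The gene lies on the minus strand of chromosome 14 (mm10, chr14:56258836-56262334) and has 5 exons. It had 209, 244 and 202 counts in inhibitor libraries 1 to 3, against 1316, 1113 and 1189 in control libraries 1 to 3. Every inhibitor library was thus far below every control library. The level averaged 12.3 ± 1.78 CPM in inhibitor and 59.2 ± 5.96 CPM in control libraries, a log2 change of -2.27 ± 0.11. Taken library against library, the log2 difference ran from -2.62 to -1.97. It was between -2.39 and -2.18 under the 15 other settings tried.

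Several other cell types express Gzmb, and their marker lists were read beside it. Of all 12978 tested genes, 40.5% passed an adjusted p of 0.05, with 20.4% higher and 20.1% lower. Of the markers of T and NK cells, Gzma had 0 counts in all libraries, Prf1 had 0 CPM in inhibitor and 0.0323 CPM in control libraries, and Cd3e had 0.0197 CPM in inhibitor and 0 CPM in control libraries. The list's summed level was 35.6 to 37.9 CPM in inhibitor and 46.9 to 58.0 CPM in control libraries. Of its 4 tested genes, 3 passed the threshold, all lower, among them the NK receptor and granule genes Klrd1 (log2 change -0.50) and Nkg7 (-0.49). The natural killer receptor genes Ncr1 (0.418 CPM in inhibitor and 0.145 CPM in control libraries) and Klrb1c (0.178 CPM in inhibitor and 0.0501 CPM in control libraries) were too rare to be tested. The part of T and NK cells in the Gzmb difference was not tested. Of 8 tested markers of plasmacytoid dendritic cells, 5 were lower and 0 higher, and their summed level was 388 to 394 CPM in inhibitor and 492 to 592 CPM in control libraries. Ccr9, a chemokine receptor of these cells, had 9.80 CPM in inhibitor and 66.9 CPM in control libraries, a log2 change of -2.78 ± 0.17 (edgeR quasi-likelihood test, Benjamini-Hochberg adjusted p = 2.73e-07), and Spib, a transcription factor of the lineage, changed by -0.93. The part of plasmacytoid dendritic cells was not tested either.

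Mcpt4 encodes mast cell protease 4, the main chymase of connective tissue mast cells in the mouse (chr14:56059744-56062310, minus strand, 5 exons). It had 5086, 4153 and 4221 counts in inhibitor libraries 1 to 3, against 3352, 3161 and 3528 in control libraries 1 to 3. The inhibitor libraries were all higher, although they held fewer counts in total. Mean levels were 251 ± 9.50 CPM in inhibitor and 164 ± 5.40 CPM in control libraries, a log2 change of 0.61 ± 0.05.

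Cma1 encodes mast cell protease 5, a relative of human chymase that is stored together with carboxypeptidase A3 (chr14:55941451-55944675, minus strand, 5 exons). Its counts were 7172, 6427 and 6557 in inhibitor libraries and 7451, 6525 and 6855 in control libraries. The scaled levels overlapped, because control library 1 reached 374 CPM and the inhibitor libraries ran from 368 to 387 CPM. The mean was 377 ± 9.66 CPM in inhibitor and 341 ± 28.9 CPM in control libraries, a log2 change of 0.15 ± 0.06. The ratio of Mcpt4 to Cma1, per kilobase, was 0.781, 0.711 and 0.709 in inhibitor libraries and 0.495, 0.533 and 0.567 in control libraries. These ratios, which do not depend on library scaling, did not overlap and were higher in the inhibitor libraries.

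Mcpt8 encodes mast cell protease 8, a granzyme-like protease used as a marker of mouse basophils (chr14:56082163-56085499, minus strand, 5 exons). It had 939, 813 and 871 counts in inhibitor libraries and 1141, 1079 and 1110 in control libraries. The inhibitor libraries lay between 47.5 and 51.5 CPM and the control libraries between 52.2 and 57.3 CPM, so the groups were apart by a narrow gap. The log2 change was -0.15 ± 0.07. Gzmb, the member nearest to Mcpt8 in coding sequence, was thus the one that differed most, while Mcpt8 differed little: the ratio of Gzmb to Mcpt8 per kilobase was 0.123 to 0.166 in inhibitor libraries and 0.572 to 0.639 in control libraries.

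Gzmb, Mcpt4, Mcpt8 and Cma1 belong to 1 cluster of related serine protease genes, which spans 15 protein-coding genes from Cma1 to Gzmb (mm10, chr14:55941451-56262334). The interval was chosen after the members' values were known. Next to the members stood Mcpt2, a chymase of mucosal mast cells, with 6593, 5666 and 5467 counts in inhibitor libraries and 1152, 1128 and 1281 in control libraries. It averaged 331 ± 7.80 CPM in inhibitor and 58.1 ± 1.94 CPM in control libraries, a log2 change of 2.51 ± 0.06 (edgeR quasi-likelihood test, Benjamini-Hochberg adjusted p = 1.53e-13). Mcpt1, the other mucosal chymase, was much less abundant, with 76, 69 and 84 counts in inhibitor libraries and 23, 28 and 21 in control libraries, a log2 change of 1.86 ± 0.24. Both lie on the plus strand, whereas the 4 members lie on the minus strand. On the far side of Mcpt8, Ctsg, the cathepsin G gene of neutrophil and mast cell granules, was lower, with 469 ± 37.2 CPM in inhibitor and 638 ± 86.2 CPM in control libraries (log2 change -0.44 ± 0.09).

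The other coding genes of the interval were nearly silent. Gzmd, Gzme, Gzmf, Gzmg and Gzmn, granzymes that lie between Ctsg and Gzmb, had 0 counts in all 6 libraries. Gzmc had 59 counts summed over the inhibitor and 54 over the control libraries, Cma2 had 29 in inhibitor and 36 in control libraries, and Mcpt9 had 8 in inhibitor and 4 in control libraries. Along the chromosome, then, Mcpt1, Mcpt2 and Mcpt4, which were higher in the inhibitor libraries, came before Mcpt8, which was slightly lower. Ctsg and Gzmb, further along, were lower still. This order is not a gradient over all genes of the interval. Cma1, at its start, overlapped between the groups, and neither Cma2 (log2 change -0.12) nor Gzmc (0.33) passed the threshold. The ratio of Mcpt2 to Mcpt4 per kilobase was 1.32 to 1.39 in inhibitor and 0.350 to 0.370 in control libraries, so Mcpt2 exceeded Mcpt4 in the inhibitor libraries and not in the control libraries. The ratio of Gzmb to Mcpt4 was 0.0269 to 0.0385 in inhibitor and 0.221 to 0.257 in control libraries.

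**Figure D3:**
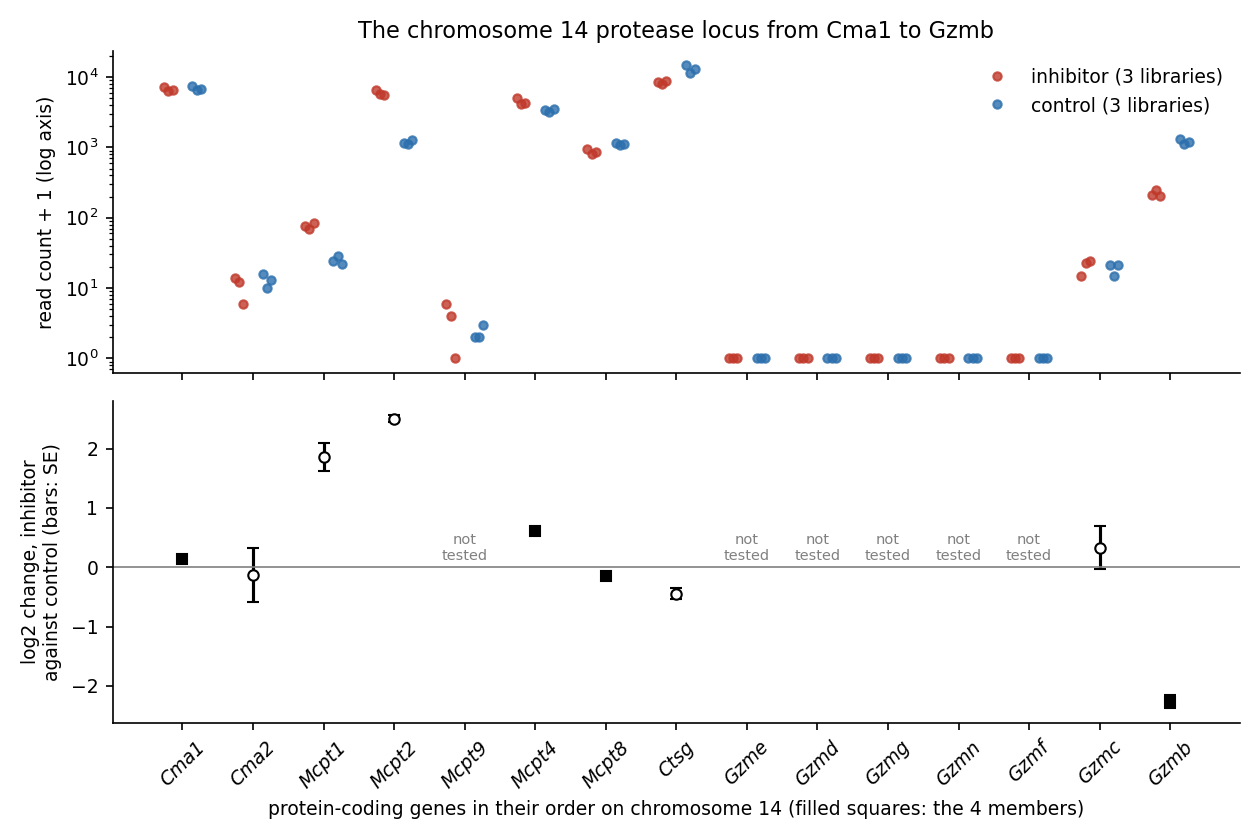
Protein-coding genes in their order along chromosome 14 from Cma1 to Gzmb. The upper panel gives the read count + 1 (log axis) with a point per inhibitor and control library, and the lower panel the log2 change with its SE, filled squares marking the 4 members. Mcpt2 stands at 2.51 and Gzmb at -2.27, and 5 granzymes between them have no counts.

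The cluster's genes are alike enough to raise the question of shared reads. In coding sequence Mcpt4 and Cma1 matched at 67.2% of aligned bases, Gzmb and Mcpt8 at 65.2%, and the remaining pairs of the 4 at 60.4 to 61.8%. Stretches of 50 bases shared exactly with another gene made up 5.48% of the Mcpt4 transcript (with Cma2 and Mcpt9), 5.38% of Cma1 (with Gm48934) and 2.69% of Ms4a2 (with Ms4a4b). The other 7 members and Mcpt2 shared none. Cma2 and Mcpt9 held at most 36 counts per group. The microRNA genes Mir6949 and Mir7007 overlap Mcpt8 and Cpa3 on the same minus strand. The sources used here do not give the strand of counting, which would not separate the reads of these pairs. Mir6949 had 0 counts in all 6 libraries, and no annotated gene overlapped the other members.

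Tpsb2 encodes the tryptase mast cell protease 6, which forms tetramers on heparin in connective tissue mast cells (chr17:25366308-25368096, plus strand, 6 exons). It had 3100, 2874 and 2857 counts in inhibitor libraries and 3621, 3080 and 3309 in control libraries. In CPM the inhibitor libraries, at 159 to 169, lay within the span of the control libraries, at 154 to 182. The log2 change was 0.01 ± 0.07, and leaving out single libraries gave -0.03 to 0.09, so the data give no direction for this gene.

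Prss34, the gene of mast cell protease 11, a tryptase expressed mainly by basophils in the mouse, lies in the same cluster on chromosome 17 (chr17:25298394-25300168, plus strand, 5 exons). Its counts were 384, 369 and 347 in inhibitor libraries and 514, 449 and 404 in control libraries. In CPM the inhibitor libraries, at 19.7 to 21.5, lay inside the control span of 19.0 to 25.8, and the log2 change was -0.12 ± 0.11. Without control library 1 it was -0.01 and without control library 3 it was -0.23, so its size rests on which control is used. The coding sequences of Prss34 and Tpsb2 matched at 60.1% of aligned bases. Between them, Prss29 had 0 counts and Prss28 had 9 counts over the inhibitor and 11 over the control libraries. Tpsab1, the gene of mast cell protease 7, is annotated as a transcribed pseudogene in this reference and had 99, 72 and 74 counts in inhibitor libraries against 51, 25 and 33 in control libraries.

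Cpa3 encodes carboxypeptidase A3, which trims peptides after chymase cleavage and is among the first granule genes to appear in mast cell and basophil progenitors (chr3:20215616-20242209, minus strand, 11 exons). It had 11845, 10585 and 11496 counts in inhibitor libraries and 10184, 11211 and 12259 in control libraries. Scaled for depth, the inhibitor libraries had 608, 618 and 679 CPM and the control libraries 511, 560 and 576 CPM. The groups did not overlap, though the gap between inhibitor library 1 and control library 3 was smaller than the SD of either group. The log2 change was 0.21 ± 0.06, and 0.16 without control library 1. The genes whose log2 CPM followed Cpa3 most closely over the 6 libraries were Zfp317, Ergic2, Cmip, Fam217b and Polk, with Pearson correlations of 0.990 to 0.991. Among 12823 genes searched, 140 exceeded 0.95, and the 6 points share their group structure and library scaling.

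Hdc encodes histidine decarboxylase, the enzyme that makes histamine (chr2:126593659-126624025, minus strand, 12 exons). It had 1323, 1157 and 1161 counts in inhibitor libraries and 1943, 1845 and 2004 in control libraries. The inhibitor libraries were nearly alike at 67.5 to 68.6 CPM and all lay below the control libraries at 92.2 to 97.6 CPM. The log2 change was -0.48 ± 0.06. Of the partners of this step, Slc18a2, the vesicular transporter that loads histamine into granules, had 34.0 CPM in inhibitor and 35.2 CPM in control libraries and did not pass the threshold, with a log2 change of -0.05 ± 0.09. Tph1, which starts serotonin synthesis in mast cells, was higher, with 28.8 ± 4.37 CPM in inhibitor and 13.9 ± 0.69 CPM in control libraries (log2 change 1.05 ± 0.11). Ndst2, which sulfates the heparin chains that hold granule proteases, was lower at 49.0 CPM in inhibitor and 70.0 CPM in control libraries (-0.51 ± 0.06). The Benjamini-Hochberg adjusted p from edgeR's quasi-likelihood test was 2.69e-06 for Tph1 and 9.09e-06 for Ndst2.

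Fcer1a, the IgE-binding chain of the receptor (chr1:173221269-173227232, minus strand, 5 exons), was the rarest member. It had 48, 48 and 37 counts in inhibitor libraries and 15, 13 and 14 in control libraries. Every inhibitor library exceeded every control library, but on few counts. Mean levels were 2.48 ± 0.31 CPM in inhibitor and 0.687 ± 0.06 CPM in control libraries, a log2 change of 1.85 ± 0.29. From the sums of 133 counts in inhibitor and 42 in control libraries the depth-scaled ratio was 3.62, with a 95% interval of 2.54 to 5.25 that covers counting error only.

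Ms4a2, the beta chain (chr19:11615517-11623790, minus strand, 7 exons), moved the other way. It had 602, 522 and 493 counts in inhibitor libraries and 722, 799 and 903 in control libraries. The inhibitor libraries, at 29.1 to 30.9 CPM, were all below the control libraries, at 36.3 to 42.5 CPM, and the log2 change was -0.39 ± 0.08. The 2 chains therefore diverged: the ratio of Fcer1a to Ms4a2 per kilobase was 0.214, 0.247 and 0.202 in inhibitor libraries and 0.0559, 0.0437 and 0.0417 in control libraries. In both groups Ms4a2 stayed well above Fcer1a. The gamma chain Fcer1g, shared with Fc receptors of many myeloid cells, had 260 ± 2.69 CPM in inhibitor and 298 ± 8.55 CPM in control libraries, a log2 change of -0.20 ± 0.05. Its Benjamini-Hochberg adjusted p from edgeR's quasi-likelihood test was 0.00714, and without control library 3 it was 0.05004, just short of the threshold of 0.05.

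The promoters of the members that moved apart are shown because those of a cluster or a receptor can be compared letter by letter. Each runs 5′ to 3′ from 250 bases before to 50 bases after the transcript start used in the RefSeq promoter table (GRCm38.p6), which need not be the outer end of the gene given above. Capitals mark GATAA, the core bound by GATA factors, and TGTGGT, the core bound by RUNX factors, on either strand (TTATC and ACCACA on the other strand). Gzmb is at chr14:56262285-56262584, Mcpt4 at chr14:56062261-56062560, Fcer1a at chr1:173227180-173227479 and Ms4a2 at chr19:11623670-11623969, all on the minus strand.
Gzmb: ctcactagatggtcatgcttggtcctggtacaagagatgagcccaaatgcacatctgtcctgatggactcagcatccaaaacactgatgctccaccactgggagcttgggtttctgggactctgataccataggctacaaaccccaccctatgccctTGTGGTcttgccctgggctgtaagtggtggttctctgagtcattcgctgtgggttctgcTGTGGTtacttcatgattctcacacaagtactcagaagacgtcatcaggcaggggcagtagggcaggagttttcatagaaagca
Mcpt4: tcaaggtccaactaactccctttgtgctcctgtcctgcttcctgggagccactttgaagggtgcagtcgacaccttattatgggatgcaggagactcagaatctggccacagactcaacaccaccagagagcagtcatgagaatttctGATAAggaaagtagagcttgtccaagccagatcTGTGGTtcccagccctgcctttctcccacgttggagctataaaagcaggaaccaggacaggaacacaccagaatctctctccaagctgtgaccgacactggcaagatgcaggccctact
Fcer1a: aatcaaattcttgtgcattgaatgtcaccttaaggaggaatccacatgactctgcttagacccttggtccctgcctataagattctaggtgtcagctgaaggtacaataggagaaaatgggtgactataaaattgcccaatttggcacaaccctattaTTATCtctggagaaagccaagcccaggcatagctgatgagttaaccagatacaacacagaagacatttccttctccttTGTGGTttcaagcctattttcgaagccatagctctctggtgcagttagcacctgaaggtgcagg
Ms4a2: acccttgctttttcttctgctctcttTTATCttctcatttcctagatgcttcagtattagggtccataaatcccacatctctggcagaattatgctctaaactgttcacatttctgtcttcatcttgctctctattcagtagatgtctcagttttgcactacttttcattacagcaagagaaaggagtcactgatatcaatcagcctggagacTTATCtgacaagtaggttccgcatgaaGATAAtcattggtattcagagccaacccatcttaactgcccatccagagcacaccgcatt
A promoter sequence was matched for 9 of the 10 members, all but Tpsb2. The start used there was the outer end of the gene for Gzmb, Mcpt4, Prss34 and Cma1, and lay 3 bases inside it for Fcer1a, 28 for Cpa3, 71 for Ms4a2 and 302 for Mcpt8. For Hdc it lay 5347 bases inside, so that window is not upstream of the whole gene as annotated. GATAA was present in 6 of the 9 (Mcpt4, Prss34, Cpa3, Cma1 and Fcer1a with 1 match and Ms4a2 with 3), against 25.41% of 32851 promoters of the same length. TGTGGT was present in 6 of the 9 (2 matches each in Gzmb and Mcpt8, and 1 each in Mcpt4, Cpa3, Cma1 and Fcer1a), against 16.76% of all promoters. No matches of the motifs overlapped each other. Fcer1a and Ms4a2 both hold GATAA, and Gzmb and Mcpt8 both hold TGTGGT without GATAA. The part of these motifs in the members' differences was not tested. The promoters of the chromosome 14 members matched each other at 50.6 to 55.5% of aligned bases. That of Prss34, on chromosome 17, matched them at 51.2 to 53.7%, so the ranges overlapped. Mcpt4 with Mcpt8 (55.5%) and with Cma1 (54.4%) lay above the Prss34 range, and Gzmb with Mcpt8 (50.6%) lay below it. A match is a string of letters and does not show that a factor was bound.

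Summed per kilobase, the 10 genes reached 1314 ± 37.9 CPM in inhibitor and 1184 ± 32.1 CPM in control libraries, with 1289 to 1357 in inhibitor libraries and 1159 to 1220 in control libraries. Gzmb took 0.551, 0.728 and 0.582% of that sum in inhibitor libraries, against 3.58, 3.17 and 3.15% in control libraries. Mcpt4 took 18.6 to 20.5% in inhibitor and 13.8 to 14.3% in control libraries. Cpa3 held 33.3 ± 1.04% in inhibitor and 32.0 ± 2.73% in control libraries, so its share overlapped between the groups. Cma1 held 26.3 ± 0.23% in inhibitor and 26.4 ± 1.54% in control libraries. Between the gene sets of the cell types, the basophil proteases Mcpt8 and Prss34 summed to 0.149 to 0.153 of the sum of the mast cell proteases Cma1 and Tpsb2 in inhibitor libraries and to 0.176 to 0.188 in control libraries. That ratio was lower in every inhibitor library than in any control library. It uses only members, which were chosen on this contrast, and Prss34, Cma1 and Tpsb2 each overlapped between the groups. Other basophil genes went in different directions: Hdc and Ms4a2 were lower, Fcer1a and Cd200r3 (log2 change 0.34 ± 0.11) higher. Il3ra changed by -0.24 ± 0.09 and did not pass the threshold. The ratio thus describes these proteases and not basophil genes as a whole.

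Other genes of mast cells and basophils were read from 5 lists, against the 20.4% of all tested genes that were higher and the 20.1% that were lower. Among 13 tested genes of other granule proteins, 6 were higher, 2 lower and 5 did not pass, with a median log2 change of 0.33. Besides Mcpt2, Mcpt1, Tph1, Ndst2 and Ctsg, they included Prg2, the major basic protein gene of eosinophils, at 4.03 CPM in inhibitor and 1.11 CPM in control libraries. Of 9 eosinophil markers, Epx had 0.240 CPM in inhibitor and 0.0167 CPM in control libraries, and the summed level was 16.0 to 19.3 CPM in inhibitor and 13.0 to 14.1 CPM in control libraries. Among the 3 tested, Prg2 passed. The count was 2 without control library 1, 2 or 3 or inhibitor library 3, and likewise without control libraries 1 and 3, and it was 3 with no filter on low counts. The part of eosinophils was not tested.

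Surface receptors of both cell types were mostly higher, as 13 of 21 tested genes were higher, 0 were lower and 8 did not pass by edgeR's quasi-likelihood test, with a median log2 change of 0.34. At an unadjusted p under 0.05, 2 genes were lower, and DESeq2 and limma-voom called 0 lower. Without control libraries 1 and 3, 10 were higher and 0 lower. Cd9, a tetraspanin of basophils, mast cells and platelets, had 548 CPM in inhibitor and 251 CPM in control libraries (log2 change 1.13 ± 0.05), and Itga2, the alpha2 integrin of basophils and platelets, changed by 0.97 ± 0.10. Megakaryocyte genes, which overlap with these, had a summed level of 4062 to 4155 CPM in inhibitor and 1764 to 2028 CPM in control libraries, with 8 of 8 tested genes higher (Pf4 by 1.40 and Itgb3 by 1.23), and their part was not tested. Cd244a changed by 0.71 ± 0.08 and the interleukin 4 receptor Il4ra by 0.53 ± 0.06. The interleukin 33 receptor Il1rl1, which marks mast cells and basophils, had 97.8 CPM in inhibitor and 82.1 CPM in control libraries (0.25 ± 0.06). Its Benjamini-Hochberg adjusted p from edgeR's quasi-likelihood test was 0.00423, and 0.0829 without control libraries 1 and 3. Kit, the receptor on which mast cells depend, had a log2 change of 0.02 ± 0.06, and Csf2rb, the common beta chain for interleukin 3, one of 0.01 ± 0.06, and neither passed. The ectonucleotidase Enpp3, a basophil and mast cell antigen, had 0 counts in all libraries.

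Downstream of the IgE receptor, 7 of 22 tested signalling genes were higher, 3 lower and 12 did not pass, with a median log2 change of 0.07. The adaptor Lat (0.56 ± 0.10), the exocytosis protein Snap23 (0.51 ± 0.07) and the ubiquitin ligase Cblb (0.38 ± 0.07) were higher, and the inhibitory phosphatase Ptpn6 was lower (-0.43 ± 0.05). Of 14 tested mediator genes, 6 were higher and 4 lower (median 0.21). The cyclooxygenases Ptgs2 (1.91 ± 0.13) and Ptgs1 (0.70 ± 0.07) and the leukotriene pathway gene Alox5ap (0.44 ± 0.06) were higher. The chemokine Ccl3 was lower, with 23.5 ± 4.43 CPM in inhibitor and 68.6 ± 2.81 CPM in control libraries, a log2 change of -1.54 ± 0.11 (edgeR quasi-likelihood test, Benjamini-Hochberg adjusted p = 5.58e-08).

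Of 18 tested transcription factors of the lineages, 5 were higher, 5 lower and 8 did not pass, with a median log2 change of 0.01. Without inhibitor library 1, and likewise without inhibitor library 2, 3 were higher. Gata1, which acts in mast cells, eosinophils, erythroid cells and megakaryocytes, had 37.5 CPM in inhibitor and 18.8 CPM in control libraries (1.00 ± 0.10), and its cofactor Zfpm1 changed by 0.92 ± 0.07. Gata2, needed for both mast cells and basophils, was lower at 72.6 ± 7.90 CPM in inhibitor and 93.0 ± 6.81 CPM in control libraries (-0.36 ± 0.08). Mitf, which drives mast cell protease and Kit genes, was higher at 24.5 CPM in inhibitor and 17.9 CPM in control libraries (0.45 ± 0.10). Cebpa, which favours the basophil side, had 119 ± 18.0 CPM in inhibitor and 171 ± 19.9 CPM in control libraries (-0.52 ± 0.11). Benjamini-Hochberg adjusted p-values from edgeR's quasi-likelihood test were 0.00247 for Gata2, 0.00302 for Mitf and 0.00361 for Cebpa, the last being 0.116 without control library 1 and 0.335 without control libraries 1 and 3. Lmo2, a partner of GATA factors, was lower (-0.45 ± 0.06).

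**Figure D4:**
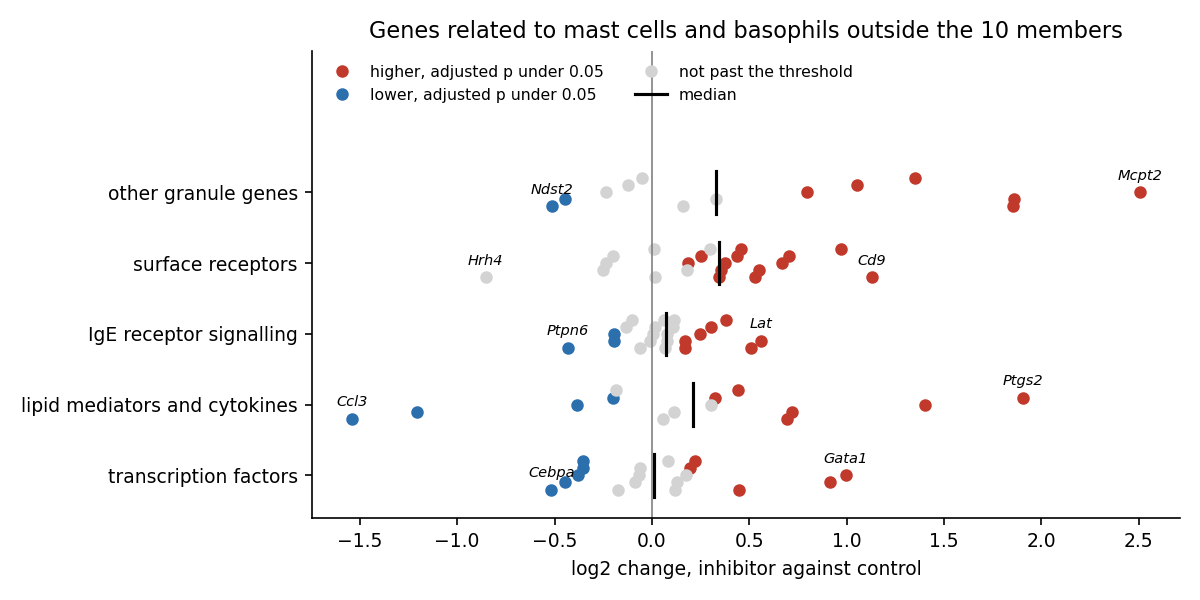
Log2 change of each tested gene in 5 lists related to mast cells and basophils, a point per gene, coloured by whether it was higher or lower at an adjusted p under 0.05 (edgeR) or grey where it was not, and a bar at each list's median. The 13 coloured points of the surface receptors lie above 0, with a median of 0.34, and those of the other lists lie on both sides; the transcription factors have a median of 0.01.

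Markers of the remaining cell types moved as well, and their part in the members' differences was not tested. Of 5 tested primary granule genes of neutrophils, 5 were lower (Elane by -0.41 and Mpo by -0.27), with a summed level of 5532 to 5681 CPM in inhibitor and 6467 to 7333 CPM in control libraries. Of 8 tested late neutrophil genes, 7 were higher and 1 lower, led by S100a8 (1.62) and S100a9 (1.63), with 378 to 386 CPM in inhibitor and 176 to 187 CPM in control libraries. Of 5 tested erythroid genes, 2 were higher, among them the erythropoietin receptor gene Epor (0.66), and 0 lower. The list's median log2 change was -0.07. Its summed level was 395 to 400 CPM in inhibitor and 377 to 449 CPM in control libraries. With the replicate block, limma-voom or an adjusted p of 0.1, 1 erythroid gene was called lower. Those called higher numbered 1 with the stricter filter and 4 with no filter. Of 2 tested B cell genes both were lower (Cd79b and Pax5), and of 7 macrophage genes 1 was higher (Vcam1) and 2 lower, among them Mrc1. Macrophage genes called lower numbered 1 with DESeq2, limma-voom, RLE factors or the stricter filter, without control library 1 and without any 1 inhibitor library. Without control libraries 1 and 3, Pax5 and Vcam1 fell short of the threshold, and Pax5 also without control library 3. Of the 10 tested stem cell markers, 4 were higher, among them Procr and Slamf1 (1.70), and 2 lower, Hlf (-0.92) and Ly6a (-0.41). The summed level of the stem cell list was 1066 to 1112 CPM in inhibitor and 992 to 1031 CPM in control libraries.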

How the data were processed

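Per the labels' protocols, Trizol-extracted RNA was made into libraries with the VAHTS mRNA-seq V3 kit. The authors deposited read counts per RefSeq gene symbol for each of 6 libraries, not normalised. A second deposited column held RPKM values, used here only as an alternative and to check the counts: the library totals they imply exceeded the summed counts by 0.22 to 0.35% in inhibitor libraries and by 2.82, 0.49 and 8.68% in control libraries 1 to 3. The submitters' processing notes name mm10 and bcl2fastq 2.20. The sources used here give neither aligner, counter nor strand of counting. The files held 0 columns of other series.

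The counts were filtered with edgeR's filterByExpr (minimum count 10, minimum total 15), scaled by TMM (factors 0.985 to 1.008) and compared, 3 inhibitor against 3 control libraries, by the robust quasi-likelihood test of edgeR 4.0.16 in R 4.3.3, with Benjamini-Hochberg adjustment over 12978 genes and a threshold of 0.05. The SE is the log2 change divided by the square root of the test's F. The steps were tested on simulated data. Levels per kilobase divide CPM by the longest transcript of a symbol. Sequences came from RefSeq (GRCm38.p6) and, for 3′ UTRs, coding sequences and shared stretches, from GENCODE M21, read with Python 3.11.15. Intervals and floors (3 counts) cover counting error only.

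The members and the lists were chosen with earlier results of these data known. The genes named are the 10 members, the 4 genes with the smallest p past the threshold in each of 5 related lists, up to 2 past it in each marker list, the 5 genes nearest in pattern to Cpa3, and Gata2, Mitf, Cebpa, Kit, Fcer1g, Il1rl1, Csf2rb and Ctsg; 1 marker gene under this rule is not reported here. Others (Cd34, Mecom, Hoxb5, Hlf, Ly6a, Slc18a2, Enpp3, Cd200r3, Il3ra, Epx, Prf1, Gzma, Cd3e, Ncr1, Klrb1c, Rn45s and the neighbours on chromosomes 14 and 17) were picked after their values were seen. Alternatives were RLE factors, DESeq2 1.42.0, limma-voom 3.58.1, no filter, blocking by replicate number, a stricter filter (a mean of 10 counts, and 1 CPM in every library of either group), each library left out and an adjusted p of 0.1. Library totals without TMM, control libraries 1 and 3 left out, and ratios of mean deposited RPKM were chosen after seeing the data.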

Additional observations from a re-analysis of the deposited data

How the results depend on the processing

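Over 15 alternatives each, 147 of 150 values of the members moved by less than the replicate spread. The exceptions were Mcpt4 and Hdc from deposited RPKM (0.67 and -0.42) and Hdc without control libraries 1 and 3 (-0.44). Of the other named genes' values, 634 kept their side of the threshold, 8 fell short of it and 0 reversed. Genes called over all tested were 2646 higher and 2613 lower, against 2574 higher and 2390 lower with DESeq2, 2063 and 1982 without control libraries 1 and 3, and 2181 to 2849 higher and 1877 to 2843 lower with single libraries left out. Surface receptors called lower numbered 0, but 2 with no filter on low counts, 2 with the replicate block, 2 at an adjusted p of 0.1, and 0 to 1 with single libraries left out. With single libraries left out, transcription factors called higher ranged from 3 to 5 and mediators called lower from 2 to 4. The causes were not tested.

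Deviations of same-numbered libraries from their group means correlated at 0.0576, 0.00818 and 0.0366 across genes. These low values give no sign of pairing by replicate number, but they cannot exclude it. The fit with the replicate block called 2831 genes higher and 2842 lower. Fcer1a rests on 13 to 48 counts per library, which sets the precision of its change. With 3 libraries per group, small differences such as those of Mcpt8 and Cpa3 are close to the spread within groups.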
